A study of Mus musculus with 6 samples.

Results

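T-box transcription factors were followed in germinal vesicle (GV) oocytes, the fully grown oocytes of the ovary that have not yet resumed meiosis. The genes were chosen by name, as rows of the deposited count table whose Entrez identifiers map to Eomes, T, Tbx1, Tbx2, Tbx3, Tbx4, Tbx5, Tbx15, Tbx18 and Tbx20. All 10 were found among the 24421 genes of the table. Of these, 8 had enough reads to be tested, and T and Tbx1 did not. The other 7 genes of the family (Tbr1, Tbx6, Tbx10, Tbx19, Tbx21, Tbx22 and Mga) were read as a comparison list.

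The study compared oocytes of 2 genotypes, with 3 libraries each and 15 oocytes of 1 female in every library. Every mouse was Ring1 -/- and Rnf2 f/f, on a mixed FVB, 129/Sv and C57BL/6J background, at about 3 months of age. The group called SKO had no further change, and the group called DKO also carried Zp3-cre, a transgene that expresses Cre recombinase in growing oocytes. Ring1 and Rnf2 encode the alternative catalytic subunits of Polycomb repressive complex 1 (PRC1). The comparison therefore addresses the loss of Rnf2 on top of a missing Ring1, and there was no wild-type group. Only DKO held the transgene, so Cre itself and the deletion cannot be told apart.

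T-box proteins bind DNA through a shared domain, the T-box, and act as activators or repressors that set up cell types in the embryo. T (Brachyury) and Eomes act at gastrulation, Tbx1, Tbx5, Tbx18 and Tbx20 in the heart and pharynx, Tbx4 and Tbx5 in the limb buds, and Tbx2 and Tbx3 as repressors in many organs. In embryonic cells that do not use them, several of these genes are well-known Polycomb targets.

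Total counts ran from 15521975 to 26652745 per library. Rnf2 stood at 180 to 203 CPM (the usual depth-scaled count, here on TMM-scaled library sizes) in SKO libraries and at 22.9 to 56.3 CPM in DKO. It fell by 2.38 on the log2 scale (edgeR quasi-likelihood test, adjusted p = 0.000349). Ring1 had 19 counts in DKO and 10 in SKO over the group. All 12 oocyte markers were detected and tested, led by Gdf9, Bmp15 and Nlrp5 at 5660, 3590 and 2330 CPM in SKO. Of these 12, 7 were lower in DKO and 0 higher, and their summed level was 11700 to 15500 CPM in DKO and 20700 to 21800 CPM in SKO. Of 9 tested granulosa and cumulus markers, 4 were higher and 1 lower, with a summed level of 265 to 289 CPM in DKO and 111 to 137 CPM in SKO. The 3 most abundant were Ptgs2 (87.1 and 3.80 CPM in DKO and SKO), Nr5a2 (117 and 79.2 CPM) and Cyp19a1 (17 and 30 CPM). Fshr, a granulosa cell gene added to these 3, stood at 30.7 and 0.506 CPM. Amh, Hsd17b1, Inha and Kitl had log2 fold changes of -1.03, 0.16, 0.49 and 0.92 and were not called. Amhr2, Foxl2 and Tnfaip6 stayed under the filter, and Ptx3 was at 0 in every library. Of 12 tested theca, stroma, mesothelium and endothelium markers, 6 were higher and 2 lower, with summed levels of 122 to 135 and 113 to 152 CPM, led by Pecam1 (61 and 110 CPM), Cyp11a1 (36.9 and 14.6 CPM) and Kdr (11.6 and 3.68 CPM). Of 10 blood and immune markers, 3 were tested, 1 was higher, and both hemoglobin genes were at 0, with summed levels of 6.72 to 10.4 and 2.34 to 4.67 CPM. Among all genes tested, 17.3% were higher and 7.41% lower, and among those with enough reads in SKO alone 12% and 8.63%. Of the 6 rises in the theca, stroma, mesothelium and endothelium list, 3 entered the test only with the DKO libraries, as did the 1 blood and immune rise. What part these cell types play in the T-box results was not tested.

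RefSeq sequences upstream of the start were at hand for 6 of the 10 members (table build GRCm38.p6), and those of Tbx2, Tbx3, Tbx5 and Tbx15 are not shown. Printed here are the 250 bases before the listed start of the member that fell (Tbx4) and of 3 members that were higher in DKO, to set their CpG content side by side. Each runs 5′ to 3′ on the strand of the gene, and capitals mark CpG dinucleotides.
Tbx4 (chr11:85896515-85896764, plus strand): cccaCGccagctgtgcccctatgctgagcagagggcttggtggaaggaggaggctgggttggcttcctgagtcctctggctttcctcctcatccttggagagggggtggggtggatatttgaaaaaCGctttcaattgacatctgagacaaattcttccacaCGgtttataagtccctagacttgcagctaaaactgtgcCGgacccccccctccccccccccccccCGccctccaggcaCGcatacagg
Eomes (chr9:118477939-118478188, plus strand): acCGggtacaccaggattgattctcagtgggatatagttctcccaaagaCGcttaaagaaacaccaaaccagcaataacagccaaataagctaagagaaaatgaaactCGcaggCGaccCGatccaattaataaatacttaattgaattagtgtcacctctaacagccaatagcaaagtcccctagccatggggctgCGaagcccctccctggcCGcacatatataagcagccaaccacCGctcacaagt
Tbx18 (chr9:87731261-87731510, minus strand): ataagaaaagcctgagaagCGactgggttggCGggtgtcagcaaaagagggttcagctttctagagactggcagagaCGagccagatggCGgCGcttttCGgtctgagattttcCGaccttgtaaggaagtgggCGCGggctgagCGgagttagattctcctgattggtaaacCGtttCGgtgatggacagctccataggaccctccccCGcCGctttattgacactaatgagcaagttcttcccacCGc
Tbx20 (chr9:24774304-24774553, minus strand): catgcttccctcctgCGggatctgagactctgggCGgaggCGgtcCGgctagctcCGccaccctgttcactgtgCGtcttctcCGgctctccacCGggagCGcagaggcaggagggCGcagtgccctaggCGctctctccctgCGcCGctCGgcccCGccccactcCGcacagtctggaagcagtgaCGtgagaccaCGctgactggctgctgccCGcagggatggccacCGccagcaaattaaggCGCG
The Tbx4 stretch holds 6 CpGs, that of Eomes 8, that of Tbx18 15 and that of Tbx20 22. Over the whole 300-base window (250 bases before the start and 50 after), Tbx4 had 8 CpGs, 0.31 of the number its base composition would give. That ratio lay between 0.61 and 0.75 in the 6 other windows of members. In windows of the other family genes it ran from 0.05 (Tbx22) to 0.89 (Mga), with 0.29 for Tbx6 and 0.45 for Tbr1. The ratio was not computed over all 32851 windows, whose median was 7 CpGs. Tbx4 has 3 annotated starts in GENCODE M21 on chromosome 11 (85886422, 85890063 and 85896765), and the window belongs to the last, so the printed stretch lies inside the gene, outside its annotated exons. Gene counts do not show which start the oocyte uses. The listed starts of Eomes and of the first Tbx1 window matched no GENCODE start closely, while those of Tbx18 and Tbx20 did.

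The windows were searched on both strands for TCACAC, the core of the half-site that T-box proteins bind, and it occurred in 0 of 16 windows of the family, against 14.5% of all windows. The letters CGCG occurred in 4 of 7 windows of members (T, the first of 2 for Tbx1, Tbx18 and Tbx20), against 38% of all windows. TATAAA, also searched on both strands, occurred among members in the Tbx4 window, against 13.6% of all windows. In the printed Tbx4 stretch it lies on the strand opposite to the gene. A match, or its lack, describes the letters of a window and no binding.

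In SKO oocytes Tbx4 made up most of the summed level of the 10 members. Most other members were close to silent there, and in DKO oocytes 6 of the 10 members rose while Tbx4 fell. Among all 14845 genes tested, 17.3% were called higher and 7.41% lower (edgeR quasi-likelihood test, adjusted p under 0.05). These are 2567 and 1100 genes, against 2905 and 596 when libraries were scaled by their totals alone. Of the 8 tested members, 5 (Eomes, Tbx2, Tbx15, Tbx18 and Tbx20) passed the filter only with the help of the DKO libraries, so a count or median over the tested members shows nothing on its own. The 3 members that passed on SKO alone were all called, Tbx3 and Tbx5 as higher and Tbx4 as lower, where 12% of such genes were higher and 8.63% lower. Of the 7 members at up to 1 CPM in SKO, tested or not, 4 were called higher, beside 9.49% of all genes of the table at that level and 45.9% of those tested. All 4 entered the test only through DKO, and the members were chosen with earlier results known. These shares are therefore no like comparison. For Tbx3 and Tbx5, which passed on SKO alone, all 3 DKO libraries lay above all 3 SKO libraries. For Tbx4 they lay below. Among all genes tested, whichever way they passed the filter, DKO lay fully above for 24.7% and fully below for 19.6%. The 5 members that passed only with DKO also had DKO above, a separation partly fixed by the filter. The untested Tbx1 also had DKO above. T hardly separated, with 0.171 CPM in DKO replicate 1 against 0.123 CPM in SKO replicate 3.

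**Figure D1:**
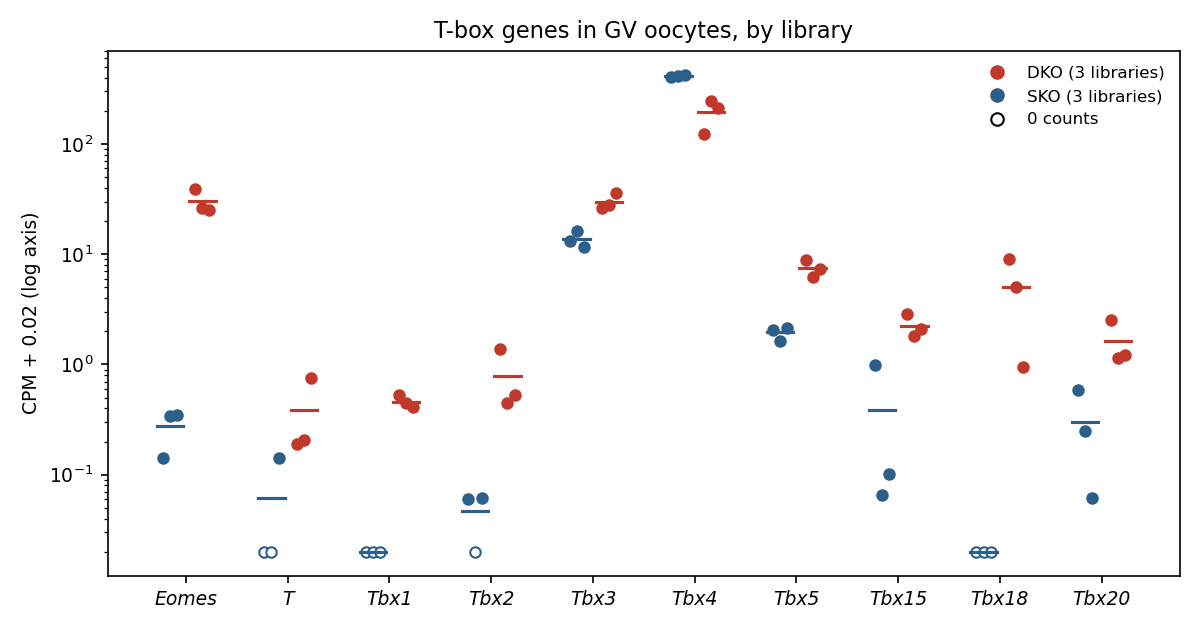
Level of each of the 10 T-box members in the 3 SKO (blue) and 3 DKO (red) libraries, in CPM with 0.02 added, on a log axis. Bars are group means and open circles are libraries with 0 counts. Tbx4 lies at 409 to 426 CPM in SKO and 123 to 245 CPM in DKO. Every other member has all DKO libraries above all SKO libraries, T only barely (0.171 against 0.123 CPM). Of these, 5 passed the filter only with DKO, and T and Tbx1 were untested. Among all genes tested, DKO lay fully above for 24.7%.

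Eomes, a master regulator of mesendoderm and trophoblast, showed the largest gain in reads of any member. The gene lies on chromosome 9, 118478186 to 118486132 (GRCm38). Counts were 681, 558 and 655 in DKO against 3, 7 and 8 in SKO, which is 38.8, 26.2 and 25.4 CPM against 0.121, 0.322 and 0.329 CPM. The DKO libraries lay close together and far above all SKO libraries. The log2 fold change was 6.85 (SE 0.42, adjusted p = 3.98e-06, edgeR), and the ratio of summed levels was 115.

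T, the founding member of the family and a mesoderm regulator, stayed almost unread. It had 3, 4 and 19 counts in DKO and 0, 0 and 3 in SKO, so the groups hardly separated and DKO replicate 3 alone stood clear of the rest. The ratio of summed levels was 9.51 (exact 95% Poisson interval 2.91 to 49.1), and the gene was under the filter for testing. In the fit without a filter it had an adjusted p = 0.174 (edgeR).

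Tbx1, a pharyngeal and heart outflow regulator, had 9, 9 and 10 counts in DKO and 0 in every SKO library. The DKO libraries were nearly equal at 0.388 to 0.513 CPM, while a count of 0 allows up to 0.121 to 0.138 CPM per SKO library. Summed over the group, the level was at least 10.2-fold higher than 3 counts in SKO would give, and at least 6.65-fold without SKO replicate 1, 7.11-fold without SKO replicate 2 and 6.73-fold without SKO replicate 3. The gene was under the filter, and in the fit without a filter it had an adjusted p = 0.0175 (edgeR). An exact permutation test over the 6 libraries gave p = 0.1, the smallest that 3 against 3 allows.

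Tbx18, which marks the sinus node, epicardium and ureter mesenchyme, went from 0 counts in all SKO libraries to 159, 106 and 24 in DKO (9.06, 4.98 and 0.932 CPM). The groups did not overlap, but the DKO libraries spread widely, with replicate 3 the lowest. The rise was called (edgeR, adjusted p = 0.00194) and was at least 106-fold against 3 SKO counts over the group. That bound was 65.3 without DKO replicate 1 and 161 without DKO replicate 3, and 68.7, 73.3 and 69.4 without SKO replicates 1, 2 and 3.

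Tbx20, a heart muscle and valve factor, had 44, 24 and 31 counts in DKO and 14, 5 and 1 in SKO, or 1.61 ± 0.775 against 0.278 ± 0.264 CPM (SD, n = 3 mice). The groups did not overlap, and SKO replicate 1 lay above the other SKO libraries. The log2 fold change of 2.5 (SE 0.82, edgeR adjusted p = 0.0482) was the call nearest the threshold. It was lost without DKO replicate 1 (2.04, adjusted p = 0.168), DKO replicate 2 (2.70, 0.0762), DKO replicate 3 (2.66, 0.0581), SKO replicate 2 (2.37, 0.142) or SKO replicate 3 (1.98, 0.126), and was 3.52 without SKO replicate 1.

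Tbx15, a regulator of skeletal and skin mesenchyme, had 50, 38 and 53 counts in DKO and 24, 1 and 2 in SKO. All DKO libraries lay above all SKO libraries, but SKO replicate 1 was far above its group. The log2 fold change was 2.57 (95% interval 0.56 to 4.59) and was not called (edgeR, adjusted p = 0.0636). Without SKO replicate 1 it was 4.96 (adjusted p = 0.00391).

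Among the members, 4 sit in neighbouring pairs, Tbx3 with Tbx5 on chromosome 5 (111.8 kb apart) and Tbx2 with Tbx4 on chromosome 11 (44.4 kb apart). In each pair both genes were tested. Tbx3 and Tbx5 rose together, and Tbx2 and Tbx4 moved in opposite directions.

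Tbx3, a repressor needed in limb, mammary gland and the conduction system of the heart, was already present in SKO. It had 456, 601 and 922 counts in DKO and 325, 356 and 283 in SKO, or 26, 28.2 and 35.8 CPM against 13.1, 16.4 and 11.6 CPM. Every DKO library was above every SKO library. The log2 fold change was 1.13 (SE 0.24, edgeR adjusted p = 0.00711), 2.19-fold. The annotated antisense RNA Tbx3os1 shares 115 exon bases with Tbx3, and its reads cannot be told apart where counting ignored strand.

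Tbx5, the forelimb and heart factor, had 154, 133 and 187 counts in DKO and 51, 35 and 52 in SKO. That is 7.43 ± 1.27 against 1.93 ± 0.282 CPM (SD, n = 3 mice), with a wide gap between the groups. It rose by 1.94 on the log2 scale (SE 0.35, edgeR adjusted p = 0.00316).

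Tbx2, a repressor that acts in heart, limb and eye, had 24, 9 and 13 counts in DKO and 1, 0 and 1 in SKO. Levels were low throughout, with DKO replicate 1 at 1.37 CPM and the other DKO libraries at 0.423 and 0.505 CPM, all above SKO. The rise was called (edgeR, adjusted p = 0.00969) and the ratio of summed levels was 25.2 (exact 95% Poisson interval 6.60 to 215). Without DKO replicate 1 the fitted log2 fold change went from 4.5 to 3.82, and without SKO replicate 2 the adjusted p was 0.0502.

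Tbx4, the hindlimb and lung mesenchyme factor (chromosome 11, 85886367 to 85916097), was the only member that fell. It had 10171, 8964 and 10364 counts in the SKO libraries and 2157, 5219 and 5458 in DKO, or 409, 413 and 426 CPM against 123, 245 and 212 CPM. The SKO libraries were nearly equal, and all DKO libraries lay below them, with replicate 1 the lowest. The log2 fold change was -1.11 (SE 0.23, 95% interval -1.62 to -0.59, edgeR adjusted p = 0.00683), to 0.465 of the SKO level. In bulk libraries, fewer oocytes with the transcript and less of it per oocyte cannot be told apart. Of all tested genes over 100 CPM in SKO, 18.8% were lower, and 7 of 12 oocyte markers fell beside Tbx4. The log2 fold changes of the 12 had a median of -0.68 and ran from -1.22 (Mos) to -0.09 (Nobox, not called). Whether the fall of Tbx4 is separate from that of abundant oocyte transcripts was not tested.

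**Figure D2:**
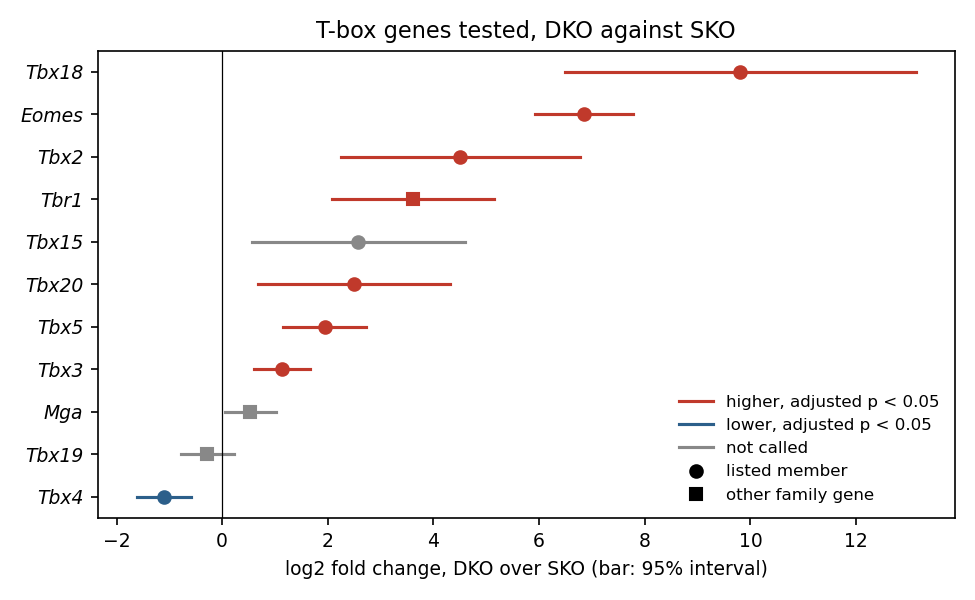
Log2 fold change of DKO over SKO with its 95% interval for the 11 T-box genes tested, circles for listed members and squares for other family genes. Red was called higher, blue lower and grey not called. Tbx4 is the only gene in blue, and Tbx18, with 0 SKO counts, has a fitted value that depends on the prior count and is no measured fold.

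Per length, Tbx4 stood at 128 CPM per kb in SKO, above 98.5% of all genes in the table, and at 59.4 ± 19.4 in DKO (SD, n = 3 mice), above 96.4%. The SKO order went on with Tbx3 at 2.73 and Tbx5 at 0.491 CPM per kb, each clear of the next gene in every library. From Tbx15 (0.102 CPM per kb) downward, neighbours in the order overlapped. In DKO, Eomes came next after Tbx4 with 7.21 CPM per kb and overlapped Tbx3 at 5.99. Tbx5 followed at 1.88, overlapping Tbx18 at 1.07, and Tbx18 overlapped Tbx15 at 0.626. Tbx1, Tbx2, T and Tbx20 ended the order between 0.178 and 0.226 CPM per kb, each overlapping the next.

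The makeup of the 10 members changed with these shifts. Outside them, Tbx19 and Mga stood at 19.7 and 15 CPM per kb in SKO, above every member but Tbx4. Tbx4 held 97.1% to 97.7% of the summed per-length level of the 10 members in SKO libraries and 64.9%, 82.8% and 79.6% in DKO replicates 1 to 3. The other 9 members together stood at 3.04 to 3.80 CPM per kb in SKO and at 20.4, 15.6 and 16.7 in DKO. Within these 9, Eomes made up 0.825% to 2.59% in SKO and 36.5% to 45.4% in DKO, while Tbx3 made up 74.5% to 86.2% in SKO and 25.3% to 42.8% in DKO. The gain of the 9 was smaller than the loss of Tbx4, so the summed level of all 10 went from 129, 131 and 134 CPM per kb in SKO to 58.1, 90.9 and 81.8 in DKO.

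**Figure D3:**
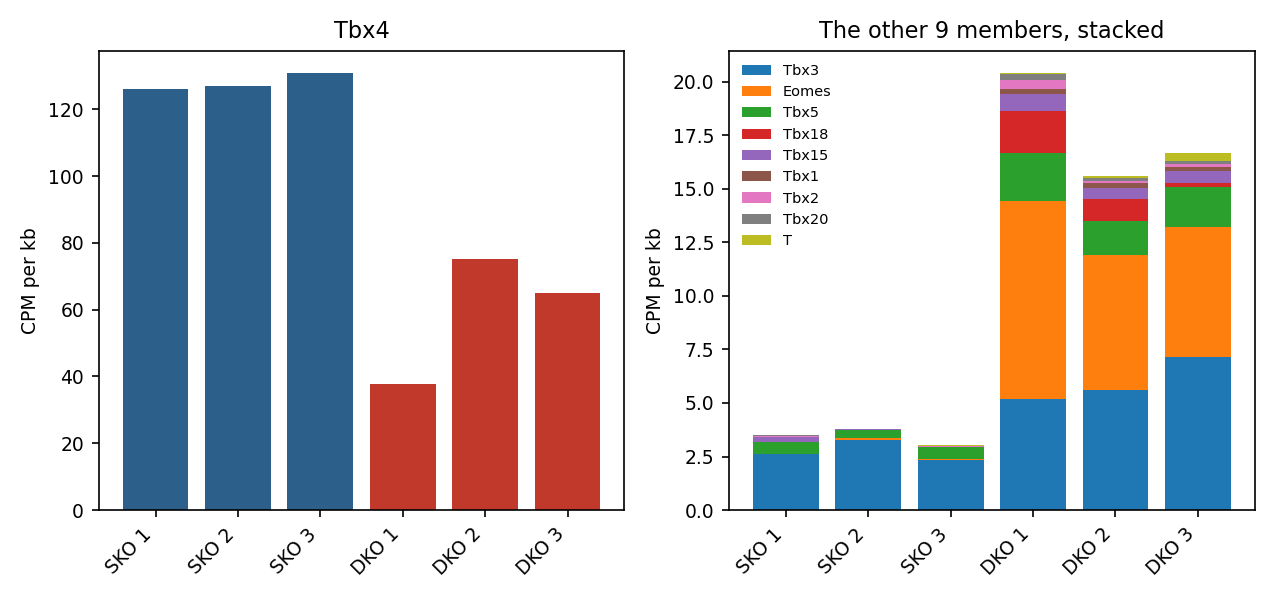
Per-length level in CPM per kb in each library, Tbx4 alone on the left and the other 9 members stacked on the right, where the axis is shorter. The bars of the 9 reach 3.04 to 3.80 in SKO and 15.6 to 20.4 in DKO, with most of the added height from Eomes and Tbx3.

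The other 7 genes of the family split. Tbr1, the close relative of Eomes that specifies cortical neurons, rose from 5, 1 and 4 counts in SKO to 26, 48 and 40 in DKO (log2 fold change 3.61, SE 0.69, edgeR adjusted p = 0.00412). The groups were far apart, and Tbr1 too passed the filter only with the DKO libraries. Mga, a very large protein with both a T-box and a Max-interacting domain and a subunit of the variant PRC1 complex PRC1.6, had 212, 258 and 204 CPM in SKO and 300, 244 and 427 CPM in DKO. These groups overlapped and the change was not called (0.53, 95% interval 0.05 to 1.01, edgeR adjusted p = 0.104). It was called without DKO replicate 2 (0.69, adjusted p = 0.042). Tbx19, the pituitary corticotroph factor, had 43.2 ± 11.8 against 52.3 ± 3.56 CPM in DKO and SKO (SD, n = 3 mice) and was not called (-0.28, 95% interval -0.78 to 0.23, edgeR adjusted p = 0.413). Tbx6 had 11 counts in SKO replicate 2 and 0 elsewhere. Tbx10, Tbx21 (T-bet, of T helper cells) and Tbx22 had 0 counts in every library, which allows up to 0.116 to 0.171 CPM per library. Over all 17 genes, 11 were tested, and 6 of these passed the filter only with the DKO libraries. Of the 5 that passed on SKO alone, 2 were higher and 1 lower, beside 12% and 8.63% of all such genes.

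Few genes around the members were called. The 2 nearest protein-coding genes on each side, T-box genes left out, came to 30 genes of the table, of which 24 were tested, 2 were higher and 1 was lower, with a median log2 fold change of -0.11. Over all genes tested, 24.7% were called in either direction. Nt5e, which encodes the ecto-enzyme CD73 and lies 596.3 kb beyond Tbx18, had 0.168 CPM in SKO and 4.04 in DKO (a rise of 4.54 on the log2 scale, SE 0.58, edgeR adjusted p = 0.000379). Lhx5, a LIM homeobox gene beyond Rbm19 from the Tbx3 and Tbx5 pair, rose by 1.62 (edgeR adjusted p = 0.0224), and Rbm19 itself, which lies 231.3 kb from Tbx5 and encodes a ribosome biogenesis protein, fell by 1.29 (0.0145). The call of Lhx5 was lost without DKO replicate 2 (adjusted p = 0.0646), SKO replicate 2 (0.0919) or SKO replicate 3 (0.0593), and that of Rbm19 without SKO replicate 2 (0.0523). The 6 tested neighbours within 25 kb of a member, a distance set after the values were seen, were all not called. Bcas3 (6.6 kb from Tbx2), T2 (11.7 kb from T), Gnb1l (14.3 kb from Tbx1) and Golga4 (20.1 kb from Eomes) had log2 fold changes of -0.66, -1, -0.13 and -0.22. Wars2 (19.1 kb from Tbx15) and Dpy19l2 (24.4 kb from Tbx20) had 0.62 and 0.11. Bcas3 and Brip1 also flank Tbx4, at 60.3 and 142 kb. Both lay lower in every DKO library than in any SKO library. Their log2 fold changes of -0.66 and -0.49 were just short of a call (edgeR adjusted p = 0.0522 and 0.0504). The next genes out, Ppm1d and Ints2, had 0.28 and -0.15, with groups that overlapped. The same genes flank Tbx2, which rose. Without DKO replicate 3 the count of called neighbours was 6, and without SKO replicate 2 it was 1.

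**Figure D4:**
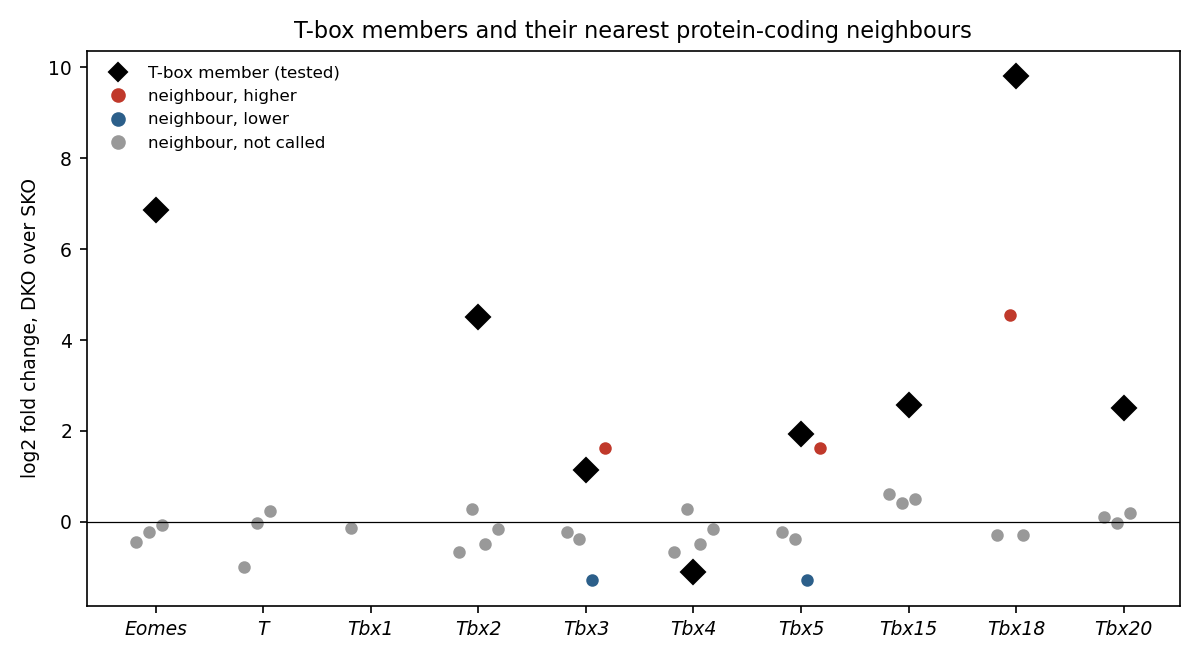
Log2 fold change of DKO over SKO for each tested T-box member (black diamonds) and for its tested neighbours, at most 2 on each side (circles, red higher, blue lower, grey not called). Genes beside Tbx2 and Tbx4, and beside Tbx3 and Tbx5, are the same and appear under both. Most circles lie near 0, with Nt5e beside Tbx18 at 4.54.

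Signals that switch T-box genes on or off in the embryo were read from a list of 15 ligands and antagonists. Of 6 tested, 3 were higher and 1 lower. In this and the following lists, genes near 0 in SKO could enter the test only by being high in DKO, so their calls were partly fixed by the filter. Among all tested genes at up to 1 CPM in SKO, 45.9% were higher, beside 17.3% of all genes tested and 12% of those that passed on SKO alone. Of the signals, 4 passed on SKO alone, with 1 higher and 1 lower (median 1, beside 0.04 for all genes tested). Bmp2 and Bmp4, bone morphogenetic proteins that act upstream of Tbx2, Tbx3 and Eomes in embryos, rose from 0.0542 to 28.1 CPM (4 SKO counts) and from 0.149 to 5.44 CPM (log2 fold changes 8.83 and 5.11, the latter 5.88 without SKO replicate 1). Inhba, which encodes an activin chain, rose by 2.01 (edgeR adjusted p = 0.0258). Its call was lost without DKO replicate 3 (1.42, adjusted p = 0.0843), SKO replicate 1 (adjusted p = 0.0874) or SKO replicate 2 (0.089). Fgf8 fell by 1.61 (adjusted p = 0.0115), from 29.7 ± 5.23 to 9.70 ± 5.73 CPM (SD, n = 3 mice), and by 2.21 without DKO replicate 2. The mesoderm inducers Nodal, Wnt3 and Wnt3a were under the filter, with at most 18 counts in any library.

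Corepressors and inhibitors of T-box proteins gave 2 rises and 0 falls among 7 tested, of 10 listed. Both rises passed the filter only with DKO. Ripply3, an inhibitor of Tbx1, rose from 1, 4 and 23 SKO counts to 430, 407 and 269 (log2 fold change 5.50, SE 0.76, edgeR adjusted p = 0.000613, and 7.29 without SKO replicate 3). Tle3, a Groucho corepressor, rose by 7.48 (8.71 without SKO replicate 1). Hdac1, Hdac2, Tle1, Tle4 and Pdlim7 had log2 fold changes of -0.31 to 0.68 and were not called.

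Genes linked to Eomes and T at gastrulation and in trophoblast gave 3 rises and 0 falls among 9 tested, of 15 listed. All 3 rises were among the 5 genes that passed the filter only with DKO, and the 4 that passed on SKO alone (Mesp2, Snai1, Evx1 and Tfap2c) had log2 fold changes of -0.56 to 0.09 and were not called. Sox17, an endoderm gene and Eomes target, went from 2 SKO counts in all to 77, 54 and 11 in DKO (edgeR adjusted p = 0.00458), with a fitted log2 fold change of 6.18, 5.47 without DKO replicate 1 and 8.75 without SKO replicate 3. Dll1, a Notch ligand of presomitic mesoderm, rose by 4.19 (adjusted p = 0.00469), by 5.05 without SKO replicate 1 and by 3.60 without SKO replicate 3. Cdx2, a trophoblast factor, rose by 2.82 (adjusted p = 0.0233), a call lost without every library but DKO replicate 1 (adjusted p 0.0563 to 0.0941). Mesp1 was not read in DKO and had 10 counts in SKO, and Msgn1, Lhx1 and Foxh1 were at 0 throughout.

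Heart factors that work with Tbx1, Tbx5, Tbx18 and Tbx20 gave 7 rises and 0 falls among 11 tested, of 16 listed. Of the 7 that passed the filter on SKO alone, 4 rose (median 1.28), beside 12% of all such genes. Gata4 rose by 1.31, Isl1, of second heart field progenitors, by 1.91, and Aldh1a2, a retinoic acid synthesis enzyme, by 1.28 (edgeR adjusted p 0.000328 to 0.0015). Gata4 stood at 52.4 ± 4.78 CPM in SKO against 130 ± 2.67 CPM in DKO (SD, n = 3 mice), with tight groups. Gata4 is also a granulosa cell gene, and the granulosa marker sum was 111 to 137 CPM in SKO and 265 to 289 CPM in DKO. Those markers did not all move the same way. Of 9 tested, 4 were higher, among them Ptgs2 (3.80 CPM in SKO, 87.1 in DKO), 1 was lower (Cyp19a1, 30 and 17 CPM), and the rest were not called. What part granulosa RNA has in the Gata4 result was not tested. Nkx2-5, Hand1 and Hand2 were under the filter, with at most 19 counts in any library, and Gata5 was at 0.

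Heart genes under Tbx2, Tbx3, Tbx5 or Tbx20 gave 4 rises and 0 falls among 5 tested, of 9 listed. All 4 rises passed the filter only with DKO, and the 1 gene that passed on SKO alone, Gja5, had a log2 fold change of -1.30 and was not called. Myh6, a cardiac myosin heavy chain, rose by 3.93 (edgeR adjusted p = 0.00326). Gja1, a connexin, rose by 2.21 (0.0214, a call lost without DKO replicate 1, SKO replicate 1 or SKO replicate 3, with adjusted p 0.0519 to 0.0749, and 3.09 without SKO replicate 2). Hcn4, the pacemaker channel, rose by 3.66 (0.0233, lost without DKO replicate 2 or SKO replicate 3, with adjusted p of 0.0673 and 0.0749). Its value was 3.05 without SKO replicate 1 and 6.46 without SKO replicate 2. Nppa, the atrial natriuretic peptide gene, had 0 counts in DKO and 5 in SKO, and Nppb had 0 in all libraries.

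Limb genes around Tbx4 and Tbx5 gave 4 rises and 1 fall among 6 tested, of 9 listed. All 4 rises passed the filter only with DKO, and of the 2 genes that passed on SKO alone 1 was lower. Sall1, Msx2, En1 and Lmx1b rose by 8.58, 5.89, 6.45 and 4.07 (edgeR adjusted p 9.65e-06 to 0.0154). Without SKO replicate 1 the value of Msx2 was 7.85 and the call of Lmx1b was lost (adjusted p = 0.0646), as it was without SKO replicate 3 (0.0502). Without SKO replicate 2 the values of En1 and Lmx1b were 7.34 and 5.90, and without SKO replicate 1 the list held 3 calls. Sall4, an abundant oocyte factor named here after its value was seen, fell by 0.74 (adjusted p = 0.0287), and Pitx1, which sets hindlimb identity upstream of Tbx4, was under the filter with 46 counts in DKO, 41 of them in replicate 3, and 14 in SKO.

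Growth and adhesion genes that Tbx2 or Tbx3 is known to repress gave 4 rises and 0 falls among 6 tested. Ndrg1 and Cdkn2a passed the filter only with DKO, and of the 4 genes that passed on SKO alone 2 rose. Ndrg1, a stress-response gene, had 9, 0 and 0 counts in SKO and 354, 619 and 625 in DKO (log2 fold change 7.55, edgeR adjusted p = 9.27e-05, and 6.96 without SKO replicate 3). With SKO replicate 1 left out no SKO count remained, and the fitted value was 12.08. The cyclin-dependent kinase inhibitor genes Cdkn1c, Cdkn2a and Cdkn1a rose by 3.09, 3.45 and 1.14. The call of Cdkn2a was lost without DKO replicate 1 or SKO replicate 3 (adjusted p of 0.0553 and 0.0559), and that of Cdkn1a without DKO replicate 2, SKO replicate 1 or SKO replicate 2 (0.0753 to 0.109). Cdh1, the epithelial cadherin gene, had a log2 fold change of -0.28 and was not called.

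**Figure D5:**
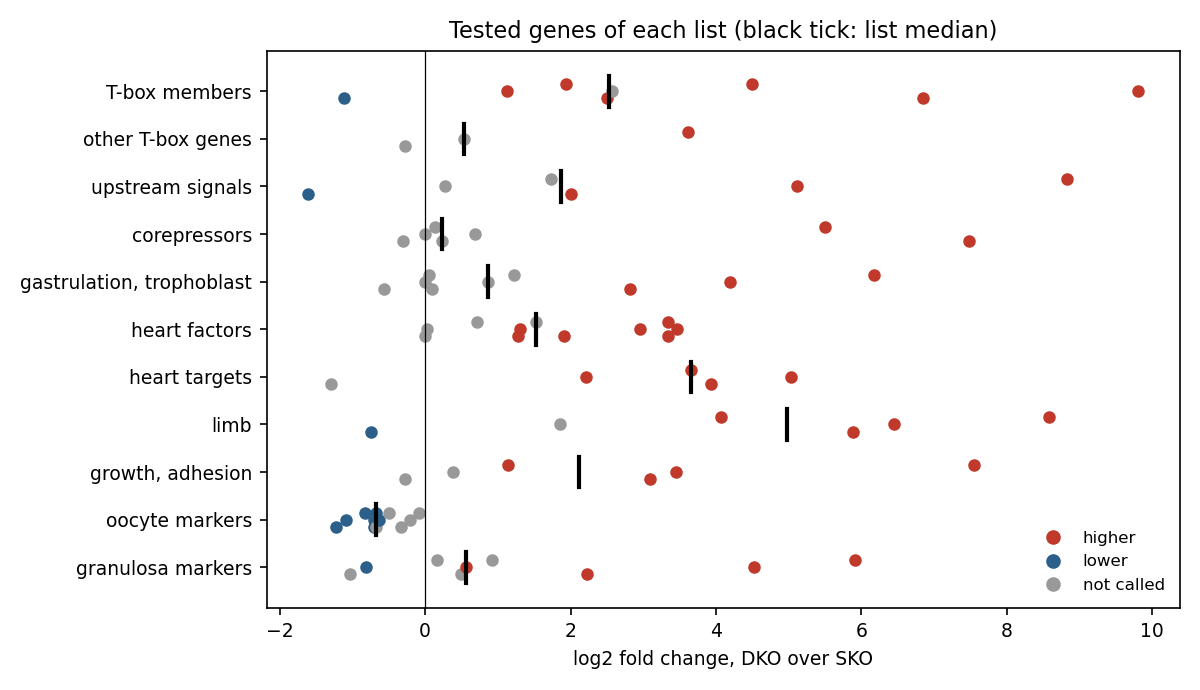
Log2 fold change of DKO over SKO for each tested gene of the T-box lists, the related pathway lists and 2 marker lists, with the list median as a black tick. Red was called higher, blue lower and grey not called. Tbx4 is the only fall among the T-box members, and the oocyte markers have a median of -0.68. Genes near 0 in SKO could be plotted only where high in DKO, so the medians of the other lists are partly fixed by the filter.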

How the data were processed

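Gene-level read counts, not normalized, were deposited by the authors with a length for each gene. The submitters' processing notes name the aligner STAR, version 2.5.0a, and as builds GRCm38 and mm10. Not given in the sources used here are the counting program, its annotation, and how it treated strand and multiple hits. RNA was amplified before library preparation, per the labels' protocols, so the exact Poisson intervals and the floors cover counting error only. The intervals of the edgeR fold changes come from the quasi-likelihood fit and also carry the spread between libraries. Library columns were matched to samples by title, and 0 further sample columns were left unused.

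Symbols and coordinates came from RefSeq GRCm38.p6 (24387 of 24421 identifiers matched). Counts were tested in R 4.3.3 with edgeR 4.0.16: filterByExpr (minimum count 10, minimum total 15), TMM scaling and the quasi-likelihood test (two-sided). P-values were adjusted by Benjamini-Hochberg across the 14845 genes tested, with calls under 0.05. SE was taken from the F statistic. Where a group had 0 counts, folds are bounds against 3 counts over the group. DESeq2 1.42.0 was an alternative. The code was tested on simulated counts. Members and lists were chosen with earlier results of these data known. Named genes are the members, the other 7 family genes, Rnf2 and Ring1, up to 4 called genes per list by smallest adjusted p, called neighbours, and the 3 most abundant genes per marker list. Some genes that this rule names are not reported here. Each library came from its own female.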

Additional observations from a re-analysis of the deposited data

How the results depend on the processing

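With 3 mice per group, calls rest on few libraries, and members with under 30 counts carry wide intervals. The 12 alternatives were RLE size factors, library totals alone, no filter, at least 30 counts in 3 libraries, DESeq2, a replicate block and leaving out each library. None of the 11 T-box genes tested changed direction where it was fitted, and the calls of Eomes, Tbx3, Tbx4, Tbx5, Tbx18 and Tbr1 held wherever these genes were tested. Leaving out 1 library at a time gave 5 to 8 members called higher and 1 lower throughout. With the stricter filter, members called higher numbered 3, other family genes 0, gastrulation and trophoblast genes 1 and heart genes under T-box factors 2, as fewer genes were tested. Other family genes called numbered 2 with library totals alone, where Mga passed (log2 fold change 0.67, adjusted p = 0.0279), and called neighbours numbered 5 with RLE, with no filter and with DESeq2. Leaving out single libraries gave 1 to 2 other family genes called, 3 to 6 limb genes and 1 to 6 neighbours. Tbx15 was called without a filter (2.54, adjusted p = 0.036) and by DESeq2 (2.59, adjusted p = 0.0189). Of all calls, 70% were rises under TMM scaling. Scaling by library totals alone gave 83% and a median over all genes of 0.20 in place of 0.04, and Tbx4 then stood at -0.96 (adjusted p = 0.0082).

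Replicate numbers are shared by label only. Deviations of same-numbered libraries correlated at 0.167, 0.084 and 0.056, and every library correlated best with its own number. With the replicate block, members called higher numbered 7 in place of 6, as Tbx15 was added (3.33, adjusted p = 0.0128), and Cdx2 was not called (adjusted p = 0.0512). Calls over all genes went from 2567 higher and 1100 lower to 2651 and 1364.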
